A study of Mus musculus with 10 samples.

Results

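A set of 37 genes of macrophages and monocytes was followed in mouse left atrium after induced deletion of Tbx5, which encodes a transcription factor of the T-box family that acts in the heart. The genes were named as known genes of these cells, with earlier results of the same data known, and each symbol was matched to the row of the deposited gene table with the most counts: 37 of the 54532 genes of that table are described, and all 37 passed the filter on low counts. They fall into 6 groups: 8 genes carried by most macrophages, 8 of resident tissue macrophages, the 3 chains of complement C1q, 6 of Fc receptors and the uptake of dying cells, 7 of recruited monocytes and activation, and 5 of lipid-associated macrophages.

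RNA came from the part of the left atrium around the pulmonary veins of 7-week-old mice, with the appendage removed and 1 to 2 mm of vein left in place. The 4 control animals (Ctrl) were R26creERT2/creERT2; Tbx5+/+, and the 6 mutant animals (CKO) were R26creERT2/creERT2; Tbx5flox/flox. Both groups received tamoxifen into the abdomen for 3 days from the age of 6 weeks, and the tissue was taken 1 week later, so the controls also carried the recombinase and received the drug. Because the recombinase is driven from the Rosa26 locus, which is active in most cell types, the deletion was not restricted to heart muscle cells.

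Libraries held between 8602794 and 10040808 counts. Tbx5 itself was measured at 155, 159, 89.6 and 132 CPM (counts scaled to the size of the library) in Ctrl 1 to 4 and at 167 to 425 CPM in the libraries labelled CKO, so its total RNA was not lower there (log2 fold change 1.00, SE 0.29, edgeR adjusted p = 0.101). The coverage of its exon 3, divided by the median of the 9 exons of the same transcript in the same library, was 0.903 to 1.70 in Ctrl and 0.175 to 0.618 in CKO, without overlap. Ctrl 3 and CKO 4 stood apart through genes of the airway lining, with a summed level of 1331 and 2345 CPM over 10 markers while no other library exceeded 63.4 CPM. Ctrl 3, Ctrl 4 and CKO 4 stood apart through B cell genes, with 577, 1181 and 796 CPM over 6 markers against 16.3 to 56.4 CPM elsewhere. Xist ranged between 1004 and 1371 CPM in 5 libraries, 2 Ctrl and 3 CKO, and between 1.44 and 6.44 CPM in the other 5, so each group held libraries of both kinds.

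The heart holds a standing population of macrophages between its muscle cells and along its vessels, which renews itself in place and clears debris and dying cells. Circulating monocytes enter through signals such as the chemokine receptor Ccr2 and can turn into macrophages after injury. Growth and survival of both depend on the receptor Csf1r. The defining genes Csf1r, Adgre1 and Cd68 were detected in all 10 libraries, with a mean Ctrl level per transcript length of 71.0, 35.2 and 22.7 TPM. Among 8 markers of the lung's alveolar macrophages, Ear1 and Fabp1 had no count, Siglecf was at 0 outside CKO 2, and Marco, a scavenger receptor, was seen in Ctrl 3, Ctrl 4 and CKO 4 only, at 9.88, 4.87 and 6.17 CPM. Ear2, a ribonuclease, and Car4, a carbonic anhydrase, were seen in all 10 libraries. Ear2 was at 0.997 to 2.51 CPM in Ctrl and 2.53 to 6.98 CPM in CKO, without overlap (log2 fold change 1.01, SE 0.35, edgeR adjusted p = 0.180), and Car4 at 0.777 to 9.30 and 2.03 to 4.03 CPM (adjusted p = 0.568). The part of such cells in the macrophage genes was not tested. The 8 alveolar markers together summed to between 7.87 and 13.5 CPM in Ctrl and between 6.21 and 14.1 CPM in CKO. Of the 3 that were tested 0 passed in edgeR, and Ear2 was the 1 with a fold change above 0. Their median log2 fold change was -0.61.

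CKO was compared with Ctrl to ask which transcripts of this tissue depend on Tbx5. Siglec1, Trem2, Cd163, Cd68 and C1qb rose in CKO: 5 of 37 macrophage and monocyte genes passed the test in that direction, against 1.54% of the 17752 genes tested, and 0 of 37 passed it as lower, against 1.26% of genes. Without adjustment, 26 of 37 had a p below 0.05, Gpnmb as the 1 lower gene among them, and Gpnmb was also the 1 gene called lower by DESeq2 (2.48% of genes). The share of all genes with an unadjusted p below 0.05 was not counted, so such counts, here and below, have no background beside them. Of the 37 genes, 33 had a fold change above 0, against 46.6% of all genes tested. Their median log2 fold change was 0.72, beside -0.03 for all tested genes. In 10 genes every CKO library lay above every Ctrl library, against 3.03% of all genes. In bulk tissue, more cells of a type and more RNA per cell cannot be told apart.

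The 5 calls differed in how firmly they stood. Siglec1 passed the edgeR threshold whichever single library was left out. Trem2 missed it in 1 of 10 such fits, without Ctrl 1 (adjusted p = 0.0673). Cd163 missed it in 7 of 10, without Ctrl 1, Ctrl 2, Ctrl 4, CKO 1, CKO 2, CKO 3 or CKO 5, with an adjusted p of 0.0570 to 0.133. Cd68 and C1qb each missed it in 8 of 10, that is in all but the fits without Ctrl 3 or CKO 3, with an adjusted p of 0.0513 to 0.114 for Cd68 and of 0.0579 to 0.135 for C1qb. The number of genes called moved with single libraries as well, from 1 without Ctrl 1 (0.568% of all genes called higher in that fit) to 14 without Ctrl 3 (1.62%). Without the 3 libraries rich in B cell transcripts 0 of 37 were called (0.291%), with 26 of 37 then higher in every CKO than in any Ctrl library, beside 12.7% of all genes. That setting leaves Ctrl 1 and Ctrl 2 as the only controls, both with high Xist (1202 and 1004 CPM). The CKO libraries left are of both kinds, so the Xist level is not balanced between the groups there.

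**Figure D1:**
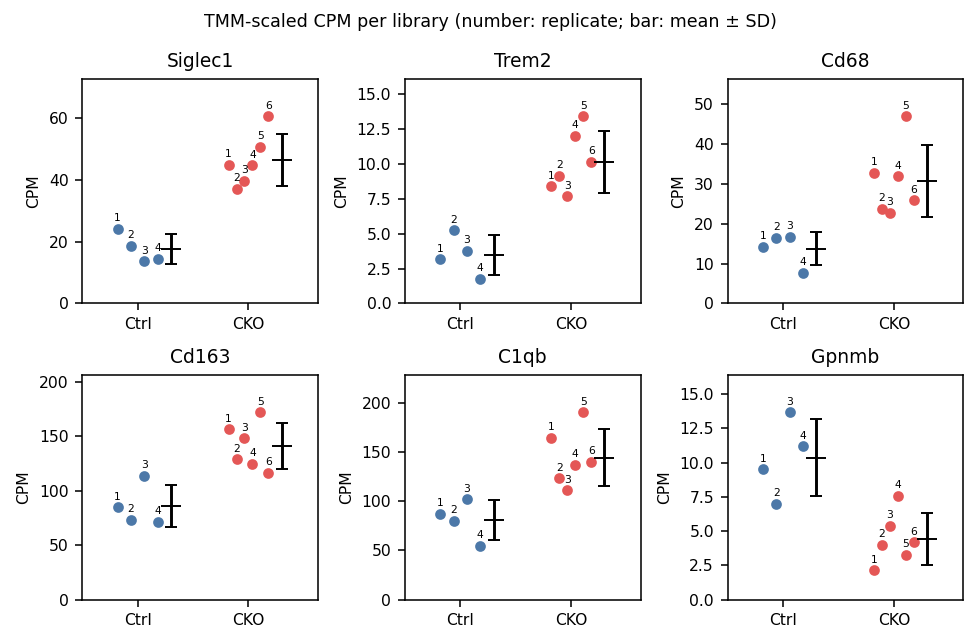
Level of the 5 genes called higher in CKO and of Gpnmb in each library, in CPM on linear axes that start at 0; points are libraries with their replicate number, and bars give the mean ± SD of 4 Ctrl and 6 CKO libraries. Every CKO point of Siglec1, Trem2, Cd68, Cd163 and C1qb lies above every Ctrl point, while Gpnmb is lower in CKO except that CKO 4 lies above Ctrl 2.

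The promoters of 3 of these genes are shown as the stretch that factors of the macrophage lineage could read, since PU.1, encoded by Spi1, is known to bind many macrophage promoters. Each is the window from 250 bases before to 50 bases after the annotated start in RefSeq, GRCm38.p6, written 5′ to 3′ on the strand of the gene. Capitals mark GAGGAA, the PU.1 core, or its reverse complement.
Trem2, chr17:48346151-48346450, plus strand: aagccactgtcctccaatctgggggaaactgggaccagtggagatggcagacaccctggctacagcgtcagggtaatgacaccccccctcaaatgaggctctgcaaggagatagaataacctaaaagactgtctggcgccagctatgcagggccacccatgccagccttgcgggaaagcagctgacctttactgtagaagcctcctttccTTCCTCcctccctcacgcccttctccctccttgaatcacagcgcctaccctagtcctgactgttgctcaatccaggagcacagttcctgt
Cd163, chr6:124304401-124304700, plus strand: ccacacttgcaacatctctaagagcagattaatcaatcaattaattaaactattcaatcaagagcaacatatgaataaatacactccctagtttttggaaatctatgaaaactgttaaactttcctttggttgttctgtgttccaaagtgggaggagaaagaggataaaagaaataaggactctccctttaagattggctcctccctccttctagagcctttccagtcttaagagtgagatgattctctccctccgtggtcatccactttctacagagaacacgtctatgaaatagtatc
Cd68, chr11:69666121-69666420, minus strand: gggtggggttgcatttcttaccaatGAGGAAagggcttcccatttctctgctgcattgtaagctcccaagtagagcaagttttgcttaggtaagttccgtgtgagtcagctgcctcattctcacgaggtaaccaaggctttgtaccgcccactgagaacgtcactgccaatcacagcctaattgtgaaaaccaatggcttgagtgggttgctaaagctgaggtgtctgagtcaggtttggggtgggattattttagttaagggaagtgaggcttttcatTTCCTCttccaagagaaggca

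The promoter table held 27 of the 37 genes. GAGGAA was found on either strand, in any window of the gene, in 15 of these 27 genes (55.6%), beside 31.3% of all 27025 genes with a window. The paired core motif of interferon regulatory factors was found in 3 of 27 (11.1%, beside 3.99%), in Aif1, Ctss and Cybb. TGCTGAC, a motif of MAF factors, was found in 2 of 27 (7.41%, beside 5.28%), and CACGTG, an E-box, in 0 of 27 (beside 8.09%). Matches of different motifs were counted separately where they share bases. A match describes the letters of the window and is not a measured binding site.

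Of the 8 genes that most macrophages share 1 rose, Cd68, and all 8 had a fold change above 0 (median log2 fold change 0.66). Csf1r, the receptor for the growth factors Csf1 and Il34, stood at 161, 165, 209 and 121 CPM in Ctrl 1 to 4 and at 193, 229 and 261 CPM (lowest, median, highest) in CKO. Ctrl 3 lay within the CKO range and the other Ctrl libraries below it. The log2 fold change was 0.47 (SE 0.15) and missed the edgeR threshold (adjusted p = 0.140).

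Cd68 (ENSMUSG00000018774, mm10 chromosome 11, 69664213 to 69666153), a glycoprotein of lysosomes and endosomes, was at 14.2, 16.4, 16.8 and 7.75 CPM in Ctrl and at 22.6, 28.9 and 46.9 CPM (lowest, median, highest) in CKO. The groups did not overlap, and CKO 5 was the highest library. Cd68 rose 2.22-fold (log2 fold change 1.15, SE 0.26, edgeR adjusted p = 0.0390). Csf1r and Cd68 thus both had higher means in CKO, 227 ± 29.2 against 164 ± 35.8 CPM and 30.6 ± 9.03 against 13.8 ± 4.17 CPM (SD, n = 6 and 4), with the test passed by Cd68.

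Ms4a7, a membrane protein of the MS4A family, and Aif1, an actin-binding protein also called IBA1, did not overlap between the groups either and narrowly missed the threshold. Ms4a7 was at 7.71, 8.09, 5.22 and 3.77 CPM in Ctrl and 9.34 to 16.4 CPM in CKO (log2 fold change 1.03, SE 0.25, adjusted p = 0.0514). Aif1 was at 4.23, 3.28, 5.11 and 2.44 CPM in Ctrl and 5.27 to 9.30 CPM in CKO (log2 fold change 0.91, SE 0.24, adjusted p = 0.0746).

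The other 4 genes of this group overlapped between Ctrl and CKO. Adgre1, which encodes the surface antigen F4/80, was at 39.1 to 72.4 CPM in Ctrl and 40.9 to 106 CPM in CKO (log2 fold change 0.65, adjusted p = 0.254). Ctss, a cysteine protease of the lysosome, was at 43.1 to 82.7 and 50.8 to 105 CPM (log2 fold change 0.53, adjusted p = 0.288). Ly86, a partner of the Toll-like receptor homologue CD180 that B cells also carry, was at 5.68 to 13.8 and 10.9 to 20.8 CPM, and Laptm5, a lysosomal membrane protein of blood cells, at 24.1 to 42.3 and 32.4 to 51.8 CPM. For Ly86 and Laptm5 the 2 highest Ctrl libraries were Ctrl 3 and Ctrl 4, which were rich in B cell transcripts. The part of B cells in these levels was not tested.

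**Figure D2:**
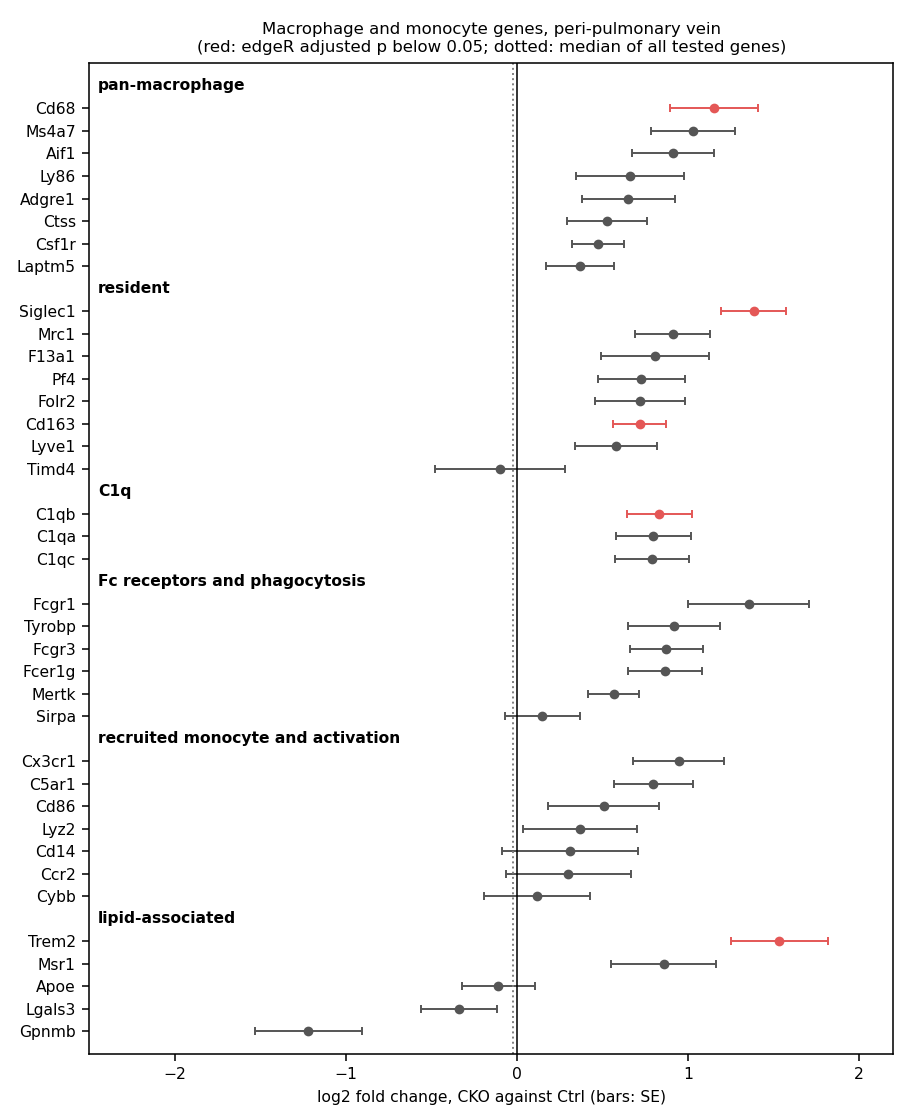
Log2 fold change of CKO against Ctrl for each of the 37 genes by group, with its SE; red marks an edgeR adjusted p below 0.05, the solid line 0 and the dotted line the median of all tested genes, -0.03. Of the 37 points 33 lie to the right of 0, and the 4 to the left are Timd4, Apoe, Lgals3 and Gpnmb.

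Genes of resident tissue macrophages rose in 2 of 8 cases, Siglec1 and Cd163, and 7 of 8 had a fold change above 0 (median log2 fold change 0.72). Siglec1 (ENSMUSG00000027322, chromosome 2, 131069220 to 131086765), a sialic acid-binding adhesion receptor also known as CD169, is found on tissue macrophages and is induced by interferon. It was at 24.2, 18.7, 13.7 and 14.4 CPM in Ctrl and at 37.2, 44.9 and 60.7 CPM (lowest, median, highest) in CKO, with CKO 6 highest. The lowest CKO library thus exceeded the highest Ctrl library. Siglec1 rose 2.61-fold (log2 fold change 1.39, SE 0.19, edgeR adjusted p = 0.00355).

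Cd163 (ENSMUSG00000008845, chromosome 6, 124304656 to 124330527), the scavenger receptor that takes up haemoglobin bound to haptoglobin, was at 84.5, 73.4, 113 and 71.4 CPM in Ctrl. In CKO it was at 116, 138 and 172 CPM (lowest, median, highest). Ctrl 3 came closest to the CKO range, and no values overlapped. Cd163 rose 1.64-fold (log2 fold change 0.72, SE 0.16, edgeR adjusted p = 0.0356). Hmox1 encodes haem oxygenase 1, which breaks down the haem that reaches the cell in this way. It rose as well, from 11.5 to 22.0 CPM in Ctrl to 26.6 to 47.7 CPM in CKO (log2 fold change 1.05, SE 0.21, adjusted p = 0.0252). Red blood cell genes summed to 204 to 449.5 CPM in Ctrl and to 176 to 1569 CPM in CKO over 5 markers. All 4 tested had a fold change above 0 (median log2 fold change 1.31). Of these 0 passed the edgeR test, 2 had an unadjusted p below 0.05 and DESeq2 called 2 higher (3.9% of all genes). The part of red blood cells in Cd163 and Hmox1 was not tested.

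Mrc1, the mannose receptor, was at 195, 212, 278 and 150 CPM in Ctrl and at 290.2, 372 and 564 CPM (lowest, median, highest) in CKO. The groups did not overlap and the threshold was narrowly missed (log2 fold change 0.91, SE 0.22, edgeR adjusted p = 0.0535). Lyve1, the hyaluronan receptor of vessel-associated macrophages and of lymphatic endothelium, was at 76.3 to 112 CPM in Ctrl and at 92.3 to 129.6 CPM in CKO apart from CKO 5, which reached 232 CPM (log2 fold change 0.58, adjusted p = 0.252). The 6 lymphatic markers summed to 210.4 to 252 CPM in Ctrl and 174 to 206 CPM in CKO, lower in every CKO than in any Ctrl library. Of the 6 genes 3 had a fold change above 0, 1 had an unadjusted p below 0.05 and 0 passed the edgeR test. Their part in Lyve1 was not tested.

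F13a1, the A subunit of coagulation factor XIII, and Pf4, the chemokine platelet factor 4, are made both by cardiac macrophages and by platelets. F13a1 was at 165 to 356 CPM in Ctrl and 236 to 803 CPM in CKO (log2 fold change 0.80, adjusted p = 0.228), and Pf4 at 18.6 to 36.8 and 27.1 to 68.2 CPM (log2 fold change 0.73, adjusted p = 0.180). Folr2, the beta folate receptor, was at 17.5 to 47.0 and 40.0 to 84.6 CPM (log2 fold change 0.72, adjusted p = 0.197). The groups overlapped for all 3, and CKO 5 was the highest library for each.

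Timd4, a receptor for phosphatidylserine on dying cells and a marker of long-lived cardiac macrophages, was the 1 resident gene without a higher mean in CKO. It was at 9.40, 10.6, 19.4 and 10.3 CPM in Ctrl and at 4.72, 9.52 and 20.8 CPM (lowest, median, highest) in CKO. Ctrl 3 and CKO 4, the libraries with airway transcripts, held the highest value of their group. The log2 fold change was -0.10 (SE 0.38, adjusted p = 0.921), and its sign turned to 0.21 without Ctrl 3 and 0.06 without CKO 3.

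The 3 chains of C1q, which starts the classical complement pathway and tags debris for uptake, are encoded side by side on chromosome 4 between 136880129 and 136898803. C1qb (ENSMUSG00000036905) rose 1.78-fold, from 87.4, 80.2, 102 and 54.4 CPM in Ctrl 1 to 4 to 111, 139 and 190.2 CPM (lowest, median, highest) in CKO, with no overlap (log2 fold change 0.83, SE 0.19, edgeR adjusted p = 0.0430). C1qa was at 71.3 to 139 and 124 to 267 CPM, with a log2 fold change of 0.80 (SE 0.22, adjusted p = 0.0892). C1qc was at 60.2 to 124 and 110.2 to 209 CPM, with a log2 fold change of 0.79 (SE 0.22, adjusted p = 0.0863). For each of the latter, Ctrl 3 was the library that entered the CKO range.

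The chains kept a similar proportion to one another. Per transcript length, C1qa over C1qb was 1.35 to 1.43 in Ctrl and 1.17 to 1.47 in CKO, and C1qc over C1qb was 0.974 to 1.11 in Ctrl and 0.901 to 1.06 in CKO. Summed over the chains, the level was 517 ± 98.0 TPM in Ctrl and 821 ± 130.5 TPM in CKO (SD, n = 4 and 6), a ratio of 1.59.

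Among the genes of Fc receptors and of the uptake of dying cells 0 of 6 passed the edgeR threshold, 5 of 6 had an unadjusted p below 0.05, and DESeq2 called 5 (3.9% of all genes) and limma-voom 1 (1.34%). Fcgr1, the high-affinity receptor for IgG, was at 1.80, 2.62, 4.997 and 2.44 CPM in Ctrl and at 4.72, 7.36 and 12.7 CPM (lowest, median, highest) in CKO. Ctrl 3 alone overlapped the CKO range (log2 fold change 1.35, SE 0.36, adjusted p = 0.0749). Fcgr3, the receptor FcγRIII, was at 28.5, 27.9, 44.1 and 21.6 CPM in Ctrl and 44.7 to 71.8 CPM in CKO, without overlap (log2 fold change 0.87, SE 0.21, adjusted p = 0.0561). Fc receptor genes are close relatives, so reads could be split between them in ways these tables do not show.

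Fcer1g and Tyrobp encode the small signalling adaptors on which Fc receptors and Trem2 rely to pass their signal into the cell. Fcer1g was at 9.52 to 16.2 CPM in Ctrl and 16.0 to 29.5 CPM in CKO (log2 fold change 0.87, SE 0.22, adjusted p = 0.0601). Tyrobp was at 13.8 to 31.8 and 26.8 to 57.7 CPM, with a log2 fold change of 0.92 (SE 0.27, adjusted p = 0.108). Mertk, the receptor kinase that engulfs dying cells, was at 16.2 to 24.5 and 23.5 to 35.0 CPM, with a log2 fold change of 0.56 (SE 0.15, adjusted p = 0.0769). For these 3 genes Ctrl 3 was again the Ctrl library inside the CKO range. Sirpa, the receptor for the don't-eat-me signal CD47, ranged from 63.5 to 88.7 CPM in Ctrl and from 45.3 to 101 CPM in CKO (log2 fold change 0.15, adjusted p = 0.769).

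Genes of recruited monocytes and activation had the lowest median after the lipid-associated ones, 0.37 against -0.11 on the log2 scale. Here 0 of 7 passed the edgeR threshold and 2 had an unadjusted p below 0.05. DESeq2 called 2 higher (3.9% of all genes) and limma-voom 0 (1.34%). Ccr2, the receptor for Ccl2 that marks monocyte-derived cells, was at 15.0, 24.6, 38.9 and 18.8 CPM in Ctrl and at 15.0, 27.2 and 54.1 CPM (lowest, median, highest) in CKO. Its ranges overlapped almost wholly (log2 fold change 0.30, SE 0.37, adjusted p = 0.711).

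Lyz2, the lysozyme of myeloid cells, was at 404, 412, 920 and 375 CPM in Ctrl and at 396, 630.3 and 1029.6 CPM (lowest, median, highest) in CKO (log2 fold change 0.37, adjusted p = 0.601). Cd14, a co-receptor for lipopolysaccharide, was at 5.35 to 14.7 and 5.35 to 18.7 CPM (log2 fold change 0.31, adjusted p = 0.728). Cybb, the catalytic subunit of the phagocyte NADPH oxidase, was at 27.4 to 74.7 and 32.3 to 76.7 CPM (log2 fold change 0.12, adjusted p = 0.879). In each of these 3 genes Ctrl 3 was the highest Ctrl library and CKO 4 the highest CKO library, the pair rich in airway transcripts, whose part in these levels was not tested. The near-identical gene Lyz1 could share reads with Lyz2.

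C5ar1, the receptor for the complement fragment C5a, did not overlap between the groups, at 6.34, 8.30, 8.99 and 9.08 CPM in Ctrl and 11.0 to 23.4 CPM in CKO (log2 fold change 0.80, SE 0.23, adjusted p = 0.103). Cx3cr1, the fractalkine receptor, was at 3.27, 6.77, 3.66 and 3.88 CPM in Ctrl and 6.38 to 12.6 CPM in CKO (log2 fold change 0.94, SE 0.27, adjusted p = 0.0955). An annotated long form of Cx3cr1 runs across other genes, Xirp1 of heart muscle among them, and carried a value in Ctrl 3 only (1.76 TPM). Cd86, which costimulates T cells and is also found on B cells, was at 4.75 to 11.4 and 7.03 to 19.3 CPM (log2 fold change 0.51, adjusted p = 0.454).

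The lipid-associated genes did not share a direction, and 1 of 5, Trem2, rose. Trem2 (ENSMUSG00000023992, chromosome 17, 48346401 to 48354147), a receptor for lipids that signals through Tyrobp, was at 3.17, 5.24, 3.78 and 1.77 CPM in Ctrl and at 7.69, 9.65 and 13.4 CPM (lowest, median, highest) in CKO. Every CKO library exceeded every Ctrl library. Trem2 rose 2.90-fold (log2 fold change 1.54, SE 0.29, edgeR adjusted p = 0.0167). The share of its transcripts could not be read at this depth: the main coding transcript was at 0 TPM in Ctrl 2, Ctrl 3, Ctrl 4 and CKO 3 although the gene was counted in all of them.

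Gpnmb (ENSMUSG00000029816, chromosome 6, 49036546 to 49070929), a glycoprotein that lipid-loaded macrophages also make, had the opposite sign. It was at 9.51, 6.99, 13.7 and 11.2 CPM in Ctrl and at 2.13, 4.09 and 7.58 CPM (lowest, median, highest) in CKO, where CKO 4 alone exceeded the lowest Ctrl library. The log2 fold change was -1.22 (SE 0.31) and missed the edgeR threshold (adjusted p = 0.0682). It passed with DESeq2 (adjusted p = 0.00860) and in edgeR without CKO 4 (adjusted p = 0.0245).

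Lgals3, the galactose-binding lectin galectin-3, was at 49.6, 46.9, 44.9 and 42.3 CPM in Ctrl and at 25.4, 33.0 and 62.6 CPM (lowest, median, highest) in CKO. The 62.6 CPM belong to CKO 4, and the other 5 CKO libraries lay below every Ctrl library. With all libraries the log2 fold change was -0.34 (SE 0.22, edgeR adjusted p = 0.471), and without CKO 4 it was -0.57 (adjusted p = 0.0459).

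Apoe, the apolipoprotein that carries lipids out of macrophages and is made by other cells of the heart too, was at 266 to 488 CPM in Ctrl and 267 to 498 CPM in CKO, nearly the same ranges (log2 fold change -0.11, adjusted p = 0.831). Msr1, a scavenger receptor for modified lipoproteins, was at 12.6 to 21.1 and 16.6 to 50.6 CPM, with a log2 fold change of 0.86 (SE 0.31, adjusted p = 0.187). Fat cell markers, 7 in all, summed to 906 to 1686 CPM in Ctrl and to 197 to 1753 CPM in CKO, and 0 of 7 passed the edgeR test. All 7 had a fold change below 0 (median log2 fold change -0.93), 2 had an unadjusted p below 0.05 and DESeq2 called 1 lower (2.48% of all genes). Retn, the hormone resistin, was lower in every CKO than in any Ctrl library, at 21.7 to 37.9 CPM in Ctrl and 1.81 to 18.7 CPM in CKO (log2 fold change -1.45, SE 0.46, edgeR adjusted p = 0.142). The part of fat cells in Gpnmb, Lgals3 and the other lipid-associated genes was not tested.

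Levels of the 37 genes could be ranked against one another per transcript length. In Ctrl, Apoe (822 ± 197 TPM) and Lyz2 (806 ± 325 TPM) led, followed after a gap by C1qa (209 ± 39.4 TPM), C1qc, C1qb, F13a1 (146 ± 38.7 TPM) and Pf4 (107 ± 24.3 TPM; SD, n = 4). Fcgr1 (2.24 ± 0.898 TPM) and Cx3cr1 (2.14 ± 0.683 TPM) closed the order. Of the 36 neighbouring pairs, 2 were further apart than the sum of their SDs, Lyz2 over C1qa and Lyve1 over Cd163. Siglec1 (5.77 TPM) and Trem2 (3.49 TPM), with the highest folds among the 5 called genes, were thus among the 4 lowest in Ctrl. Of the 37 genes 6 overlap another gene with 10 or more counts, 4 of them on the opposite strand (Csf1r with Hmgxb3, Folr2 with Gm10602, F13a1 with Gm30489 and Cx3cr1 with Wdr48). The TruSeq RNA kit named in the labels does not mark strand, so reads of such pairs cannot be told apart by strand. The file headers nevertheless give a stranded setting (--rf) for the authors' quantification, and its effect on these pairs was not tested.

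Summed over each group, the ratio of CKO to Ctrl was 1.50 for resident genes (534 ± 98.7 TPM in Ctrl, 799 ± 146 TPM in CKO) and 1.56 for Fc receptor and uptake genes (213 ± 39.2 and 332 ± 49.7 TPM). The ratio was 1.38 for genes of most macrophages (276 ± 40.7 and 382 ± 77.7 TPM) and 1.19 for genes of recruited monocytes and activation (866 ± 338 and 1032 ± 391 TPM). It was 0.839 for lipid-associated genes (911 ± 200.0 and 764 ± 193 TPM), a sum that Apoe makes up for the most part. These sums describe the libraries (SD, n = 4 Ctrl and 6 CKO) and carry no test. Of the 6 sums, that of Fc receptor and uptake genes did not overlap between the groups, with 270.5 TPM in the highest Ctrl and 273 TPM in the lowest CKO library, and the other 5 did.

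**Figure D3:**
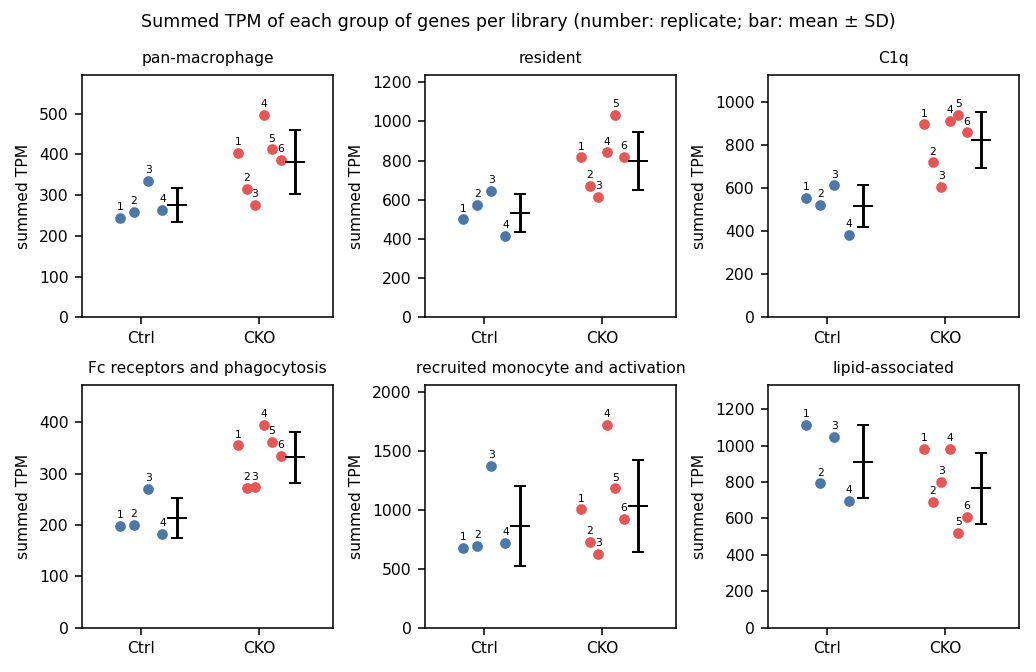
Summed TPM of each group of genes in every library, on linear axes that start at 0; points are libraries with their replicate number, and bars give the mean ± SD of 4 Ctrl and 6 CKO libraries. Ctrl 3 is the highest Ctrl library in 5 of the 6 groups, all but the lipid-associated genes. CKO 4 is the highest CKO library for genes of most macrophages, for Fc receptor and uptake genes and for recruited monocyte genes.

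The libraries differed in all groups of genes together. CKO 5 held the highest value for 23 of the 37 genes, CKO 4 for 9, CKO 1 and CKO 6 for 2 each, and Ctrl 3 for 1, Gpnmb. Ctrl 4 held the lowest value for 20, Ctrl 1 for 7 and Ctrl 2 for 5. To describe each gene beside the level of Csf1r, its count was divided by the Csf1r count of the same library. Relative to Csf1r, 7 of 36 genes were higher in every CKO library than in any Ctrl library, against 0.473% of all other genes tested: Trem2 (2.11 times the Ctrl mean), Siglec1 (1.83), Cd68 (1.60), Aif1 (1.37), Mrc1 (1.34), Fcer1g (1.30) and C1qb (1.28). Gpnmb was lower in every CKO library (0.308 times), as were 12.1% of all other genes tested, and 28 of 36 overlapped. These ratios were not tested. Csf1r itself had a higher mean in CKO (log2 fold change 0.47), so a gene at an unchanged level has a lower ratio there. Without the division 3.03% of all genes were higher in every CKO library and 2.7% lower. The shares of 0.473% and 12.1% are thus set in part by the divisor and do not measure how far these genes stand out.

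**Figure D4:**
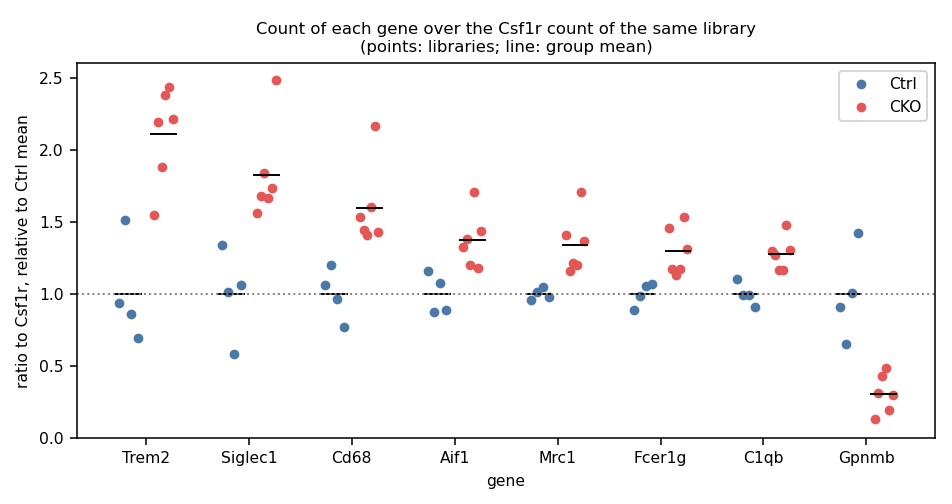
Count of a gene over the Csf1r count of the same library, divided by the mean of the Ctrl libraries, for the 8 of 36 genes whose Ctrl and CKO ratios do not overlap; points are libraries, lines group means, and the dotted line is 1. The mean of Trem2 in CKO lies at 2.11 and that of Gpnmb at 0.308.

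Other genes of the same pathways were read from 7 lists with 96 genes, 85 of them tested. Of these, 7 were called higher and 1 lower, against 1.54% and 1.26% of all 17752 genes tested. The same shares stand beside the edgeR counts of each list below. Among the ligands that attract monocytes 2 of 9 were called higher. The CC chemokine Ccl8 was at 6.13, 2.84, 5.66 and 2.55 CPM in Ctrl and at 15.7, 23.3 and 35.7 CPM (lowest, median, highest) in CKO, the largest fold among the 8 called genes of these lists. It rose by 2.54 on the log2 scale (SE 0.33, edgeR adjusted p = 0.00252) and passed whichever single library was left out.

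Ccl7, a ligand of Ccr2, was at 1.06 to 3.17 CPM in Ctrl and 3.40 to 10.9 CPM in CKO (log2 fold change 1.71, SE 0.38, adjusted p = 0.0376). That call was lost in 8 of 10 fits that left out 1 library, all but those without Ctrl 2 or CKO 3 (adjusted p of 0.0513 to 0.121). Ccl2, the best known ligand of Ccr2, was named after its values were seen: it was at 2.01 to 3.61 and 3.18 to 16.6 CPM, with a log2 fold change of 1.47 (SE 0.42, adjusted p = 0.0970). Ccl7 and Ccl2 thus had higher means in CKO, with the test passed by Ccl7, while Ccr2 itself did not pass.

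Of 14 other resident macrophage genes 2 rose, Hmox1, given above, and Vsig4, the complement receptor CRIg. Vsig4 was at 16.3, 11.9, 17.7 and 11.8 CPM in Ctrl and 22.7 to 42.2 CPM in CKO (log2 fold change 1.03, SE 0.19, adjusted p = 0.0178), and lost its call when Ctrl 2 or Ctrl 4 was left out (adjusted p of 0.0644 to 0.0756). Hmox1 missed it without Ctrl 1, Ctrl 2, Ctrl 4, CKO 1 or CKO 6 (adjusted p of 0.0503 to 0.0959).

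Among 13 other monocyte genes Ms4a6c, a membrane protein of the MS4A family, and Vcan, the matrix proteoglycan versican that fibroblasts also make, were called. Ms4a6c was at 8.13, 6.23, 9.66 and 6.76 CPM in Ctrl and 14.7 to 25.5 CPM in CKO (log2 fold change 1.29, SE 0.19, adjusted p = 0.00547), and passed in every fit that left out 1 library. Vcan was at 172 to 238 CPM and 315 to 619.7 CPM, with a log2 fold change of 1.12 (SE 0.22, adjusted p = 0.0227), and lost its call without Ctrl 1, Ctrl 2 or Ctrl 4 (adjusted p of 0.0710 to 0.0821). Ly6c2, the classical marker of inflammatory monocytes and likewise named after its values were seen, was at 3.00 to 7.29 CPM in Ctrl and 1.75 to 6.67 CPM in CKO (adjusted p = 0.698).

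Of 13 genes for CSF1 signals and myeloid transcription factors 1 rose and 1 fell. Tfec, a transcription factor of macrophages related to MITF, was at 0.997 to 1.97 CPM in Ctrl and 2.53 to 6.22 CPM in CKO (log2 fold change 1.55, SE 0.33, adjusted p = 0.0326), and was lost without Ctrl 1, Ctrl 2, Ctrl 3, Ctrl 4, CKO 1, CKO 5 or CKO 6 (adjusted p of 0.0565 to 0.105). Nr1h3, the sterol-sensing nuclear receptor LXRα, was at 37.1, 38.2, 41.4 and 28.3 CPM in Ctrl and 15.7 to 30.8 CPM in CKO (log2 fold change -0.82, SE 0.19, adjusted p = 0.0437), and was lost in 9 of 10 such fits, all but that without CKO 5 (adjusted p of 0.0556 to 0.146). Csf1, the growth factor read by Csf1r, was at 59.0 to 77.2 CPM in Ctrl and 66.2 to 96.9 CPM in CKO, and Spi1 at 5.87 to 11.7 and 7.14 to 15.4 CPM. Csf1 and Spi1 were named after their values were seen, and neither passed (adjusted p = 0.443 and 0.356).

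The remaining 3 lists gave no call in edgeR. Of 17 other lipid-associated and lysosomal genes 2 had an unadjusted p below 0.05 and DESeq2 called 1 higher (3.9% of all genes). For 14 signalling genes these counts were 1 and 0, and for 5 NADPH oxidase genes 0 and 0. With limma-voom 0 of these genes were called. The most abundant of them were Lpl, lipoprotein lipase (1285 to 2554 CPM in Ctrl, 2446 to 3393 CPM in CKO), and Cd36, a fatty acid transporter (1115 to 1366 and 1173 to 1379 CPM), both also made by heart muscle and vessels. The kinases Axl and Syk and the oxidase subunits Cyba and Ncf1 overlapped between the groups as well.

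Markers of other cell types moved beside these genes in part. Among all genes tested, edgeR called 1.54% higher and 1.26% lower, and DESeq2 3.9% and 2.48%. Of 8 cell division genes 6 were called higher in edgeR and 8 in DESeq2. All 8 were higher in every CKO than in any Ctrl library, beside 3.03% of all genes. Their summed levels were 32.7 to 61.9 CPM in Ctrl and 93.9 to 317 CPM in CKO, and CKO 5 was the highest library here too. Kif11, a mitotic motor, had a log2 fold change of 2.80 (SE 0.35, adjusted p = 0.00245). Blood endothelial markers summed to 679 to 865 CPM in Ctrl and 913 to 1043 CPM in CKO, without overlap. All 6 had a fold change above 0 (median log2 fold change 0.23). Of these 0 passed in edgeR, 3 had an unadjusted p below 0.05, and DESeq2 called 1 higher. Of 8 heart muscle markers 1 was called higher and 2 lower, and DESeq2 called 2 higher and 4 lower. Myl7, the atrial myosin light chain, was at 4322 to 7654 CPM in Ctrl and 664 to 1177 CPM in CKO (log2 fold change -2.61, SE 0.21, edgeR adjusted p = 0.000116). Sln, sarcolipin, had a log2 fold change of -0.96 (adjusted p = 0.0171) and Tnnt2, troponin T, one of 0.73 (adjusted p = 0.0136). Summed, the 8 genes were at 38361 to 46439 CPM in Ctrl and 33291 to 49597 CPM in CKO. Of 6 fibroblast markers 0 passed in edgeR, 3 had an unadjusted p below 0.05, and DESeq2 called 1 higher and 1 lower. Gsn, the actin-severing protein gelsolin, was lower in every CKO than in any Ctrl library (log2 fold change -0.55, adjusted p = 0.0633), while Col1a1, a collagen chain, had a log2 fold change of 0.66 (adjusted p = 0.159).

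Of 9 neutrophil markers Retnlg, Camp and Mmp8 had no count in any library, and 0 of the 4 tested passed. Csf3r, the receptor for G-CSF, was at 2.73 to 4.10 CPM in Ctrl and 1.58 to 6.97 CPM in CKO, and the chemokine receptor Cxcr2 at 2.19 to 3.65 and 1.96 to 3.84 CPM. S100a9, a calcium-binding protein that monocytes also make, had a mean of 1.24 CPM in Ctrl and 2.64 CPM in CKO (log2 fold change 1.09, SE 0.66, adjusted p = 0.433). Ltf, lactoferrin, which airway glands also make, reached 382 CPM in Ctrl 3 and 450.1 CPM in CKO 4. Which cells carried the cell division genes, and the part of any of these cell types in the macrophage genes, was not tested.

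The authors' deposited table adds the left atrial appendage, the blind pouch of the same chamber, from libraries of an earlier study that were not analysed one by one here. In the authors' deposited table for the appendage, 29 of the 37 genes were higher in CKO at a false discovery rate below 0.05, against 16.8% of 13646 genes, and 2 were lower, Gpnmb (log2 fold change -1.20) and Lgals3 (-1.21), against 17.9%. For the peri-pulmonary vein tissue the authors' deposited table called 13 higher (3.03% of genes) and Gpnmb lower (2.47%). Across genes its vein fold changes had a correlation of 0.99999 with those of the edgeR fit above, so it was taken to rest on the same libraries. Its 13 calls beside the 5 above thus come from another fit, over 13646 rather than 17752 genes, and are not separate evidence. Over the 37 genes, the authors' deposited table had a median log2 fold change of 1.17 in the appendage and 0.70 around the veins. Whether the effect of the deletion differed between the regions was not tested.

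All 8 genes of most macrophages were called higher in the appendage in the authors' deposited table, led by Ms4a7 (2.06), Aif1 (1.98) and Ly86 (1.95), and 2 of them, Cd68 and Ms4a7, around the veins. Of the recruited monocyte genes the authors' deposited table called 5 of 7 higher in the appendage, with Cx3cr1 at 2.13, Lyz2 at 1.47, Cd14 at 1.21, C5ar1 at 1.17 and Cybb at 0.59, and 0 of 7 around the veins. The median log2 fold change of these 7 was 1.17 in the appendage and 0.35 around the veins in the authors' deposited table. For resident genes the authors' deposited table called 6 of 8 higher in the appendage (median 0.65) and 3 of 8 around the veins (median 0.71). Trem2 was at 2.04 in the appendage and 1.52 around the veins in the authors' deposited table, and Siglec1 at 1.32 and 1.37. The 13 genes called higher around the veins were all called higher in the appendage in the authors' deposited table, and made up 44.8% of those called there; among all genes the shares were 86.4% and 15.6%.

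A further column of the authors' deposited table compares the regions, with positive values read as higher around the veins because airway genes such as Scgb1a1 were strongly positive (13.8). The authors' deposited table called 14 of the 37 genes higher around the veins, against 8.19% of genes, and 1 lower, Lgals3 at -1.17, against 4.06%. Ccr2 (2.28), Timd4 (1.82), Cybb (1.42), Ctss (1.27), Msr1 (1.25), Cd14 (1.22), Lyz2 (1.22) and Laptm5 (1.19) had the highest values in the authors' deposited table. Siglec1 (0.12), Pf4 (0.11), Mertk (0.07) and Fcgr1 (-0.09) lay near 0 in the authors' deposited table. Ctrl 3, rich in airway and B cell transcripts, was the highest Ctrl library for every gene named from Ccr2 to Laptm5. It was so for Pf4, Mertk and Fcgr1 too, and its part in the region values was not tested. The regions were sequenced in separate studies, so region and study cannot be told apart, and this comparison shares libraries with the other columns.

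**Figure D5:**
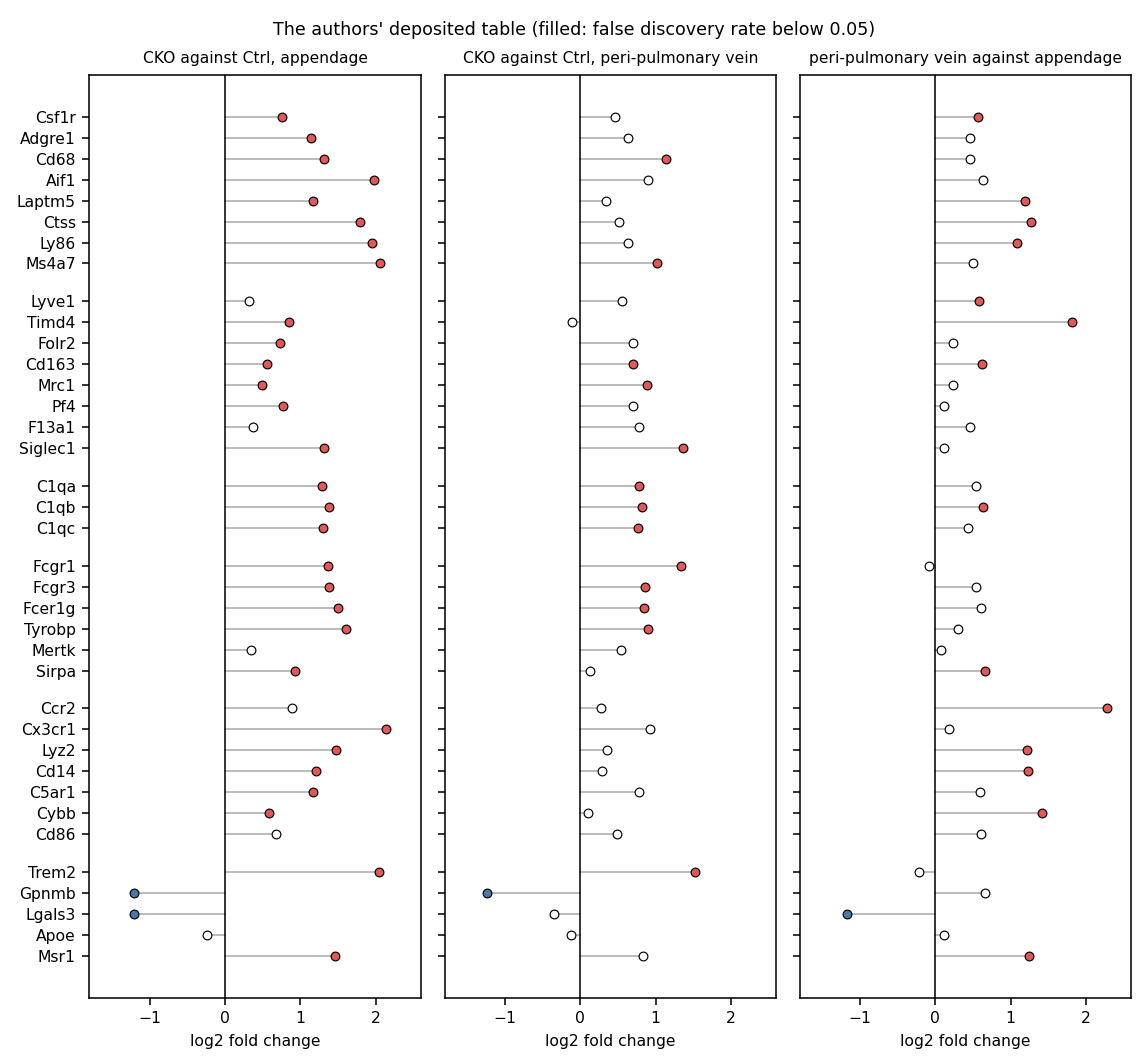
Log2 fold changes of the 37 genes in the authors' deposited table for the deletion in the appendage, the deletion around the veins, and veins against appendage; filled points have a false discovery rate below 0.05, red for higher and blue for lower. Filled points number 31, 14 and 15 from left to right, and Gpnmb lies left of 0 in both deletion panels.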

How the data were processed

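RNA of 10 libraries was depleted of ribosomal RNA and prepared with a TruSeq kit, per the labels' protocols, although the labels also give polyA RNA as the molecule. The submitters' processing notes name TopHat2 2.1.1, the build mm10, StringTie 1.3.3, limma 3.32.10, edgeR 3.18.1 and R 3.4.0. The deposited gene table holds expected counts, derived by the authors from StringTie coverage, and the deposited transcript files hold TPM. The authors' deposited table gives log2 fold changes, p-values and false discovery rates whose model is not given in the sources used here. The gene table also has 10 columns of libraries outside these labels, which were not used. Counts were tested with edgeR 4.0.16 in R 4.3.3 (filterByExpr, TMM scaling, quasi-likelihood test on genotype, Benjamini-Hochberg adjustment over 17752 genes, threshold 0.05). CPM are TMM-scaled, with factors near 1, and SE is that of the log2 fold change. DESeq2 1.42.0 and limma-voom (limma 3.58.1) were alternatives, with other filters, scalings, left-out libraries and covariates. In simulated counts 6.38% of 1.5-fold, 23.4% of 2-fold and 83.7% of 4-fold changes were found, and 6 of 102 calls were false. Ctrl and CKO libraries that share a number deviated from their group means with correlations of 0.0240, 0.0804, -0.291 and 0.0817, so the numbers were not taken to pair animals. Libraries of a group differed beyond counting error (chi-square over its degrees of freedom 10.9 or more). The labels give no separate batch. The genes and lists were chosen with earlier results of these data known. Named were all 37 genes, and of each pathway list the called genes (at most 4) or the 2 most abundant where none was called. For markers of other cell types the rule was called genes, up to a set number, or the most abundant one. Marco, Ear2, Retn, Col1a1, Csf3r, Cxcr2 and S100a9 were named beyond that rule, and not every called cell division gene was described. Promoters come from RefSeq, GRCm38.p6. Protein sequences were not used here.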

Additional observations from a re-analysis of the deposited data

Results flagged for a closer look

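Single libraries stood far from the rest of their group in 14 of 138 groups of libraries, over 69 genes (the gap to the next value was large for the whole range, by Dixon's test); chance alone marks about 1 group in 20. Of the macrophage and monocyte genes, Lyve1 was at 232 CPM in CKO 5 against 129.6 CPM in the next CKO library, and C5ar1 at 23.4 against 14.9 CPM in the same library. Lgals3 was at 62.6 CPM in CKO 4 against 37.2 CPM in the next CKO library. In Ctrl 3, Timd4 was at 19.4 CPM against 10.6 CPM in the next Ctrl library and Lyz2 at 920.2 against 412 CPM. Among markers of other cell types, the same Ctrl 3 stood out for Scgb1a1 at 862 CPM (next 42.0), Ltf at 382 CPM (next 43.2), Myl7 at 7654 CPM (next 4859) and Kif11 at 3.22 CPM (next 1.88). CKO 4 stood out for Scgb1a1 at 1452 CPM (next 7.97), Ltf at 450.1 CPM (next 2.07), Ighm at 658 CPM (next 53.5) and Cpa3 at 18.8 CPM (next 11.5). Top2a was at 18.4 CPM in Ctrl 4 against 12.02 CPM in the next Ctrl library.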

How the results depend on the processing

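Both groups are small, and the simulated data show how few 2-fold changes such a design finds, so a gene that missed the threshold is not shown to be unchanged. Of 37 macrophage and monocyte genes, 5 were called in the edgeR fit with all libraries. That number was 19 with DESeq2 (18 higher, 1 lower), 3 with library size alone as the scaling (1.28% of all genes higher), 2 without the filter on low counts (0.587%), 11 with the Xist level as a covariate (2.07%), 10 with the airway marker level as a covariate (9 higher, 1 lower, beside 1.55% and 1.58% of all genes) and 0 without the 3 libraries rich in B cell transcripts, a setting chosen after seeing the data. Leaving out 1 library gave 1 to 14. Over all genes, 497 were called, against 1132 with DESeq2, 166 without the 3 B cell libraries and 190 to 607 with 1 library left out. Of the pathway lists 8 genes were called, against 5 without the filter, 2 without the 3 B cell libraries and 2 to 9 with 1 library left out. Genes without overlap between the groups numbered 10 (5.72% of all genes in either direction), against 5 with library size alone (6.2%), 23 without both airway libraries (17.3%), 28 without the 3 B cell libraries (26%) and 10 to 21 with 1 library left out (6.43% to 14%, the latter without Ctrl 3). Siglec1 passed in 20 of 22 alternatives (highest adjusted p = 0.0784), Trem2 in 17 (0.206), Cd163 in 10 (0.133), Cd68 in 9 (0.252) and C1qb in 9 (0.241). The cause of these shifts was not tested.

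The replicate number as a block could use 8 libraries, with same-numbered Ctrl and CKO libraries as pairs. It called 51 genes in all, 0 of the 37 and 1 of the pathway lists. The same 8 libraries without the replicate block, a fit added after seeing the data, gave 234, 1 and 4. The log2 fold changes of the 5 called genes were 1.26 for Siglec1, 1.46 for Trem2, 0.72 for Cd163, 1.04 for Cd68 and 0.75 for C1qb under the replicate block, and 1.23, 1.41, 0.70, 1.01 and 0.72 in the same libraries without it. The numbers were not taken to pair animals. Apoe had a log2 fold change of 0.082 under the replicate block and of 0.053 in the same libraries without it, against -0.11, and ranged from -0.25 to 0.014 with 1 library left out. Timd4 turned from -0.10 to 0.21 without Ctrl 3, 0.06 without CKO 3 and 0.029 with the airway covariate, and ranged from -0.35 to 0.21 with 1 library left out. Cybb turned from 0.12 to below 0 without Ctrl 1, Ctrl 2 or CKO 4, within a range of -0.061 to 0.45.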
